A study of Bos taurus with 18 samples.

Results

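Of 27607 bovine gene identifiers, 2 stood higher in both serum-containing media than in every serum-free medium by the limits used here, ENSBTAG00000033304 and ENSBTAG00000017409. Levels are given as CPM, a gene's counts for every 1000000 counts of its library. A group's level for the selection, called x here, was the mean CPM of its 3 replicates plus 0.5. A gene was taken when the lower x of the serum groups reached 5 and was at least 3 times the highest x of the serum-free groups. The serum groups also had to lie within 3-fold of each other, and the DMEM and SFDM groups less than 4-fold apart. These 18 libraries chose the 2 genes, so the gap between serum and serum-free media is given as a description and was not tested.

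The cells were satellite cells of the Belgian Blue breed, grown on flasks coated with collagen. At 0 h they came from growth medium with 20% fetal bovine serum (GM) or from a growth medium without serum (SFGM). After 72 h of differentiation, cells from GM were in medium with 2% serum (DM). Cells from SFGM were in 1 of 3 media without serum: the base medium alone (SFB), the differentiation medium made with DMEM/F-12 (SFDM), or the same made with DMEM (the DMEM group). The DM cells thus shared with GM both the serum and the earlier culture in it, and these cannot be told apart. The serum level also fell from 20% to 2% together with the 72 h of differentiation. Replicates A, B and C are biological triplicates per the labels, and what the letters stand for is not stated. The p-values therefore measure only the spread between these cultures.

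Satellite cells are the stem cells of skeletal muscle. They lie beside the muscle fibre, divide after injury, and fuse into new fibres when they differentiate. Fetal bovine serum is an undefined mixture of growth factors, hormones, lipids, binding proteins and attachment factors, and lowering it is the usual way to start differentiation in culture. Media with and without serum therefore differ in many components at once.

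Neither identifier was paired with a gene symbol, since 0 of the 27607 identifiers matched the reference table, so no function, sequence or position is given for them. For the same reason the markers of satellite cells, fibroblasts and other cell types could not be read, and the label of the cells was not checked. In RNA from whole cultures, fewer cells of a type and less RNA per cell cannot be told apart. The libraries held 16162525 to 28589018 counts, with the lowest total in SFDM replicate A. Of the identifiers, 14637 passed the filter on low counts, both members among them.

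ENSBTAG00000033304 had the larger ratio on the scale of x. In GM its level was 57.3, 56.9 and 46.5 CPM in replicates A, B and C, and in DM it was 61.5, 65.6 and 49.5 CPM. Replicate C was the lowest library in both serum groups, and the groups overlapped. In SFGM the level was 2.32, 2.87 and 2.05 CPM, in SFB 2.35, 2.08 and 2.11 CPM, and in SFDM 1.30, 1.72 and 1.99 CPM. These 3 groups lay close together at the bottom of the range. In the DMEM group it was 6.02, 5.98 and 6.97 CPM, above every other serum-free library and below every serum library.

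By group means, ENSBTAG00000033304 ran from DM (58.9 ± 8.35 CPM, SD, n = 3) and GM (53.6 ± 6.10) through DMEM (6.32 ± 0.562) to SFGM (2.41 ± 0.416), SFB (2.18 ± 0.147) and SFDM (1.67 ± 0.347). DM and GM did not differ beyond their spread, and neither did SFGM and SFB. In plain CPM the gene was 22.2-fold higher in GM than in SFGM. At 72 h it was 27.0-fold higher in DM than in SFB, 35.3-fold higher than in SFDM and 9.31-fold higher than in DMEM. On the scale of x, which adds 0.5 to each mean, the lower serum group was 7.92 ± 1.11 times the highest serum-free group (SD carried over from the replicates). Here the lower serum group was GM and the highest serum-free group was DMEM. The lowest serum library still stood 6.67-fold above the highest serum-free library.

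ENSBTAG00000017409 showed a gap of similar relative size on the scale of x, from far fewer reads. In GM its level was 10.7, 9.44 and 10.05 CPM in replicates A, B and C, and in DM it was 6.08, 7.74 and 8.55 CPM. Every DM library lay below every GM library. In SFGM it was 0.165, 0.385 and 0.0395 CPM, from 4, 11 and 1 counts. The single count of SFGM replicate C lies under 3 counts, which correspond to 0.118 CPM in that library. In SFB the level was 0.512, 0.611 and 0.899 CPM, in SFDM 0.619, 0.430 and 0.231 CPM, and in DMEM 0.713, 0.598 and 0.592 CPM. All 12 serum-free libraries were thus below 1 CPM, with 1 to 23 counts each, and none was at 0.

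By group means, ENSBTAG00000017409 ran from GM (10.1 ± 0.634 CPM, SD, n = 3) and DM (7.45 ± 1.26) to SFB (0.674 ± 0.201), DMEM (0.634 ± 0.0681), SFDM (0.427 ± 0.194) and SFGM (0.197 ± 0.175). SFB and DMEM did not differ beyond their spread, and SFDM overlapped with each of the other serum-free groups. In plain CPM the gene was 51.2-fold higher in GM than in SFGM, with a 95% counting interval of 30.1 to 86.4 (exact Clopper-Pearson on 830 and 16 counts). Without SFGM replicate B this fold was 98.3, and without SFGM replicate C 36.6. In DM it was 11.1-fold higher than in SFB (8.15 to 14.9), 17.5-fold higher than in SFDM (12.2 to 27.6) and 11.8-fold higher than in DMEM (8.66 to 15.9). These intervals cover counting error only. The smallest gap, DM over SFB, was 6.77 ± 1.58 on the scale of x, where the added 0.5 takes up most of the serum-free value in SFGM and SFDM. The lowest serum library was 6.76-fold above the highest serum-free library in plain CPM.

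**Figure D1:**
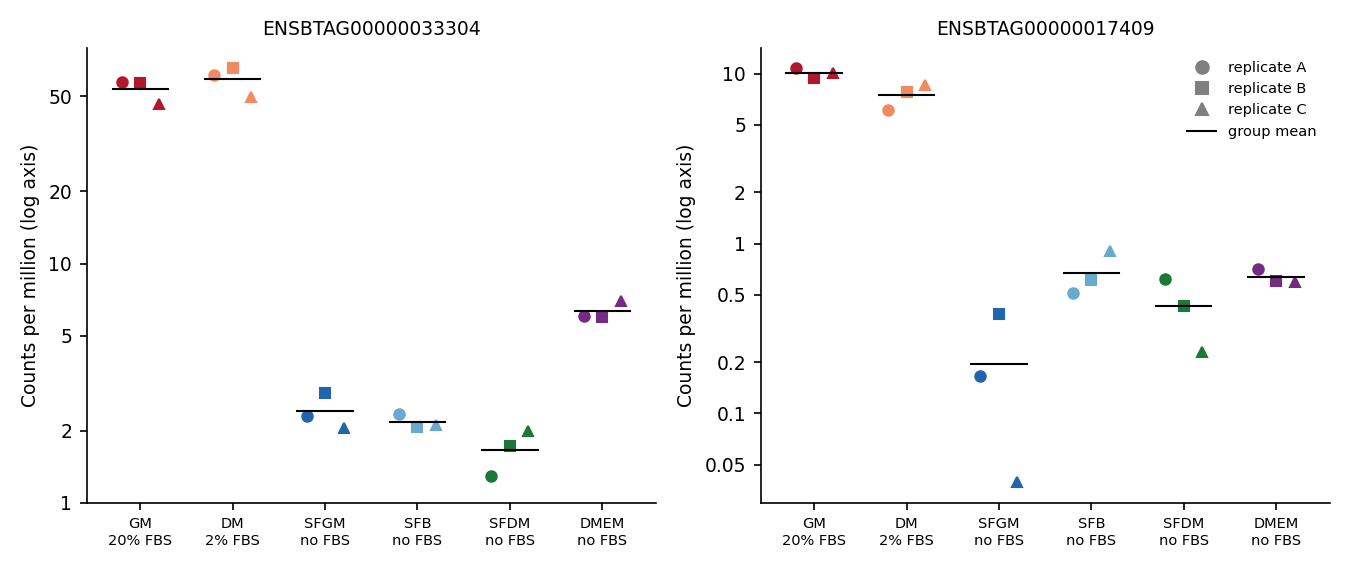
Level of ENSBTAG00000033304 (left) and ENSBTAG00000017409 (right) in each of the 18 libraries, in CPM on a log axis; symbols are replicates A, B and C, and lines are group means. Both genes are separated between serum and serum-free libraries, and the DMEM group of ENSBTAG00000033304 stands at 5.98 to 6.97 CPM, between the serum groups and the other serum-free groups.

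In both genes all 6 serum libraries lay above all 12 serum-free libraries. Of the 14637 genes tested, 214 or 1.46% had this order, and the selection favours it, so nothing is read from it for the 2 members. Between the serum groups, ENSBTAG00000017409 was 1.35-fold higher in GM than in DM, and ENSBTAG00000033304 was 1.10-fold higher in DM than in GM. Both values are descriptions, because the selection kept only genes within 3-fold between these groups.

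Against the serum groups, the selection limited the serum-free groups only from above. It also kept SFDM and DMEM less than 4-fold apart, so DMEM against SFDM was not tested. The other differences among serum-free groups were tested. This limit still ties SFDM and DMEM to each other, so comparisons with either are not fully free of the selection. ENSBTAG00000033304 lay near it, with 3.15-fold between them on the scale of x. The tests were edgeR quasi-likelihood tests over all 14637 genes with Benjamini-Hochberg adjustment at 0.05. The 3 comparisons with SFGM share its libraries, as the pair with SFB shares SFB, and SFGM was sampled only at 0 h, so medium and time cannot be told apart. In DMEM against SFGM both members rose, where 32.0% of all genes tested rose. ENSBTAG00000033304 was higher by 1.45 ± 0.16 log2 units (SE, edgeR adjusted p = 4.78e-07), and ENSBTAG00000017409 by 1.69 ± 0.46 (edgeR adjusted p = 0.00418). Each gene was higher in 3 of 3 DMEM libraries than in any SFGM library. The share of all genes with this order of libraries was not counted, so nothing is read from it here or in the comparisons below.

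In SFB against SFGM 1 of the 2 members rose, where 28.5% of all genes tested rose. It was ENSBTAG00000017409, higher by 1.82 ± 0.46 log2 units (edgeR adjusted p = 0.00261), with 3 of 3 SFB libraries above every SFGM library. ENSBTAG00000033304 differed by -0.04 ± 0.18 (edgeR adjusted p = 0.869), and its libraries overlapped. The rises of ENSBTAG00000017409 rest on the 16 counts of SFGM. Without SFGM replicate B, which held 11 of them, they came to 2.80 log2 units in SFB and 2.66 in DMEM. Without SFGM replicate C, which held 1 count, they came to 1.36 and 1.22, and both still passed (edgeR adjusted p = 0.0115 and 0.0195).

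In SFDM against SFGM neither member passed the edgeR test at an adjusted p of 0.05, where 61.4% of all genes tested did in either direction. ENSBTAG00000033304 differed by -0.37 ± 0.19 log2 units (edgeR adjusted p = 0.1002). Each SFDM library lay below each SFGM library in CPM from column totals. The test used TMM scaling, under which the order of SFDM replicate C and SFGM replicate C is reversed. ENSBTAG00000017409 differed by 1.14 ± 0.52 (edgeR adjusted p = 0.0674, unadjusted p = 0.0429), and its libraries overlapped. It rests on 27 and 16 counts and passed the filter on low counts only because of its level in the other groups. This gene passed with DESeq2 (adjusted p = 0.0249), without SFGM replicate B (edgeR adjusted p = 0.00587) and without SFDM replicate C (edgeR adjusted p = 0.0326). Without SFGM replicate C its difference was 0.67 (edgeR adjusted p = 0.231). In a fit of SFDM and SFGM alone it was not tested, for too few counts. ENSBTAG00000033304 passed with scaling to library totals only (-0.51 ± 0.19, edgeR adjusted p = 0.0275).

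The supplements of the differentiation medium were compared in SFDM against SFB, both at 72 h and without serum. Neither member passed the edgeR test there, where 34.6% of all genes tested did in either direction, and neither had an unadjusted p under 0.05 or passed with DESeq2. ENSBTAG00000033304 differed by -0.34 ± 0.20 log2 units (edgeR adjusted p = 0.201), and ENSBTAG00000017409 by -0.69 ± 0.41 (edgeR adjusted p = 0.217). The latter rests on 27 counts in SFDM and 50 in SFB.

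In DMEM against SFB 1 of the 2 members was higher, where 20.7% of all genes tested were. The DMEM group differed from SFB both in its DMEM base and in the supplements, and these cannot be told apart here. ENSBTAG00000033304 was higher in DMEM by 1.49 ± 0.16 log2 units (edgeR adjusted p = 1.29e-06), with 3 of 3 DMEM libraries above every SFB library. ENSBTAG00000017409 differed by -0.14 ± 0.37 (edgeR adjusted p = 0.799). The DMEM group was also 3.79-fold above SFDM in ENSBTAG00000033304 in plain CPM, and 3.15-fold on the scale of x. That difference was not tested, since the selection kept only genes less than 4-fold apart between these groups. For ENSBTAG00000017409 the corresponding fold in plain CPM was 1.49, with overlapping libraries.

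**Figure D2:**
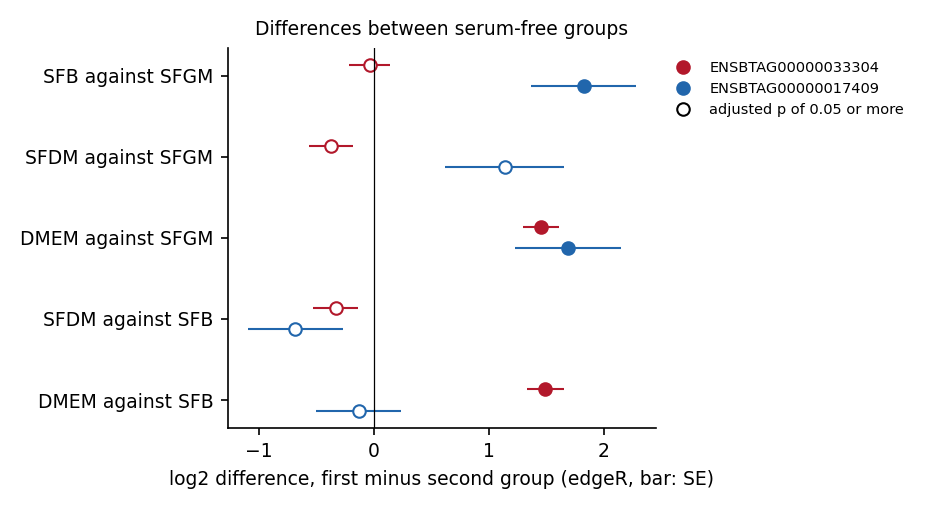
Differences of the 2 genes between serum-free groups, in log2 units (first minus second group, edgeR), with the SE as a bar; filled points have an adjusted p under 0.05. ENSBTAG00000033304 is higher in DMEM than in SFGM and SFB by 1.45 and 1.49, and ENSBTAG00000017409 is higher in DMEM and SFB than in SFGM by 1.69 and 1.82.

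Among genes with an x of at least 5 in both serum groups, no ratio lay between those of the members and just under 3. The members' ratios of the lower serum group to the highest serum-free group were 7.92 and 6.77 on the scale of x, and the next gene reached 2.99, just under the limit of 3. That gene had 17.8 ± 1.40 CPM in GM and 11.3 ± 0.545 in DM. Its serum-free levels were 0.622 ± 0.0982 in SFGM, 2.71 ± 0.215 in SFB, 2.44 ± 0.323 in SFDM and 3.45 ± 0.645 in DMEM (SD, n = 3). It was thus 16.3-fold higher in GM than in SFGM on the scale of x, and its DMEM level kept it out.

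The second gene outside, with a ratio of 2.73, had 21.0 ± 1.69 CPM in GM, at least 16.2 CPM in every serum library and 6.28 ± 1.65 in DMEM, and 2.09 to 3.34 CPM in the other serum-free groups. The third, with 2.35, had 29.9 ± 1.05 CPM in GM and 19.6 ± 0.601 in DM. It reached 8.04 ± 0.669 in SFB and 3.20 to 4.21 CPM in the other serum-free groups. At a 2-fold limit 7 genes were left, the members included. DMEM was the highest serum-free group in 4 of them, SFB in 2, SFDM in 1 and SFGM in 0. In 6 of the 7 the lower serum group was DM, and ENSBTAG00000033304 was the exception.

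**Figure D3:**
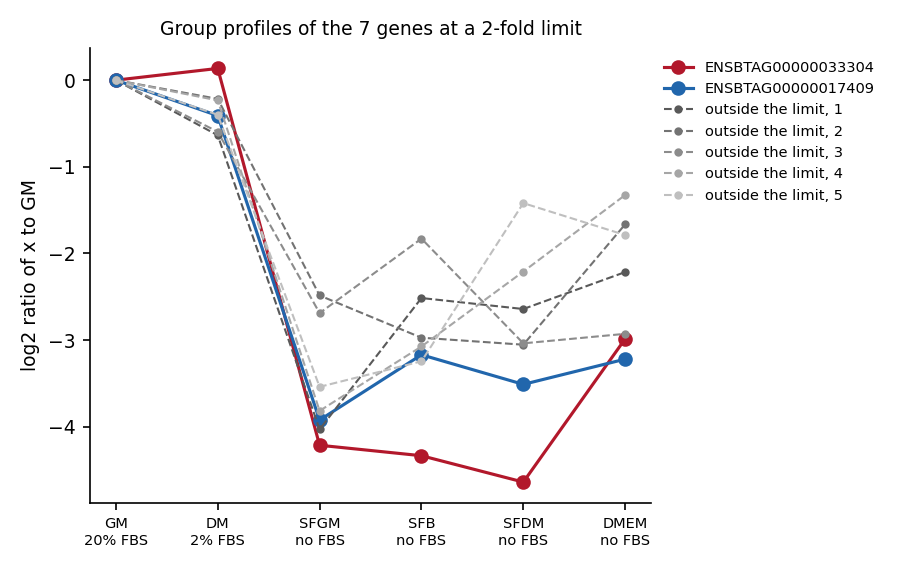
Group levels of the 7 genes that meet a 2-fold limit, as log2 ratios of x to GM, with the members in colour and the 5 genes outside the 3-fold limit in grey in the order of their ratios; the lines only join the points of a gene. The members stay about 3 log2 units or more below GM in every serum-free group, and in 4 of the 7 genes DMEM is the highest serum-free group.

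The requirement to hold at both times removed most genes. At 0 h 96 genes had an x of at least 5 in GM and at least 3 times that of SFGM, and 65 of them had an x of at least 5 in DM. Of these 65, 22 were at least 3-fold above SFDM in DM, 22 above SFB and 11 above DMEM, and 6 were above all 3. From the 72 h side, 66 genes were at least 3-fold higher in DM than in SFB, SFDM and DMEM, and 14 of them had an x of at least 5 in GM. Of the 6 genes on both lists, 4 fell out because a serum group at one time did not reach 3 times a serum-free group at the other time. In 3 of these it was DM against SFGM, and in 1 it was GM against SFDM. Some of the 4 also lay past the 3-fold limit between the serum groups. An x of 68.5 in GM stood beside 8.46 in DM in 1 gene, and 21.3 in GM beside 124 in DM in another.

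The selection required DM to stand at least 3-fold above SFB, SFDM and DMEM on the scale of x. A gap of the members at 72 h wider than the median of the 0 h list was therefore fixed in advance. Over the 96 genes, which include the members, the median log2 ratio of x was 2.04 for GM over SFGM, which chose them, and 0.72 for DM over SFB, 0.815 for DM over SFDM and 0.46 for DM over DMEM. Over all 11644 genes with an x of at least 5 in any group, the same 3 medians at 72 h were -0.04, 0.02 and -0.07. ENSBTAG00000033304 stood at 4.21 at 0 h and at 4.47, 4.77 and 3.12 at 72 h. ENSBTAG00000017409 stood at 3.92 at 0 h and at 2.76, 3.10 and 2.81 at 72 h. The 66 genes of the 72 h list had a median of 0.02 for GM over SFGM and of 3.92 for DM over GM. Only 14 of them had an x of at least 5 in GM. Most were thus low in GM, where the added 0.5 shrinks ratios, so a missing gap at 0 h is not read from this median. Over the 96 genes the median for DM over GM was -1.40. These are descriptions, since the members were chosen on both gaps.

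**Figure D4:**
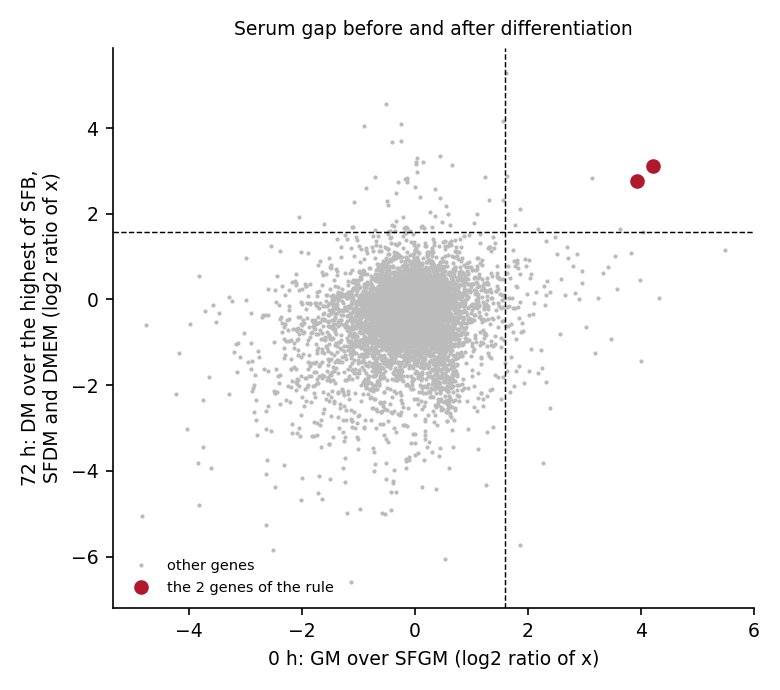
Each point is a gene with an x of at least 5 in any group; the horizontal axis is the log2 ratio of x in GM to SFGM at 0 h, and the vertical axis that of DM to the highest of SFB, SFDM and DMEM at 72 h. Dashed lines mark 3-fold, and the members lie at 4.21 and 3.12 and at 3.92 and 2.76, past both lines.

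Relaxing the level limit added little. With an x of at least 1 in the serum groups in place of 5, 3 genes met the 3-fold limit, the members included, and with an x of at least 10 only ENSBTAG00000033304 did. With the groups exchanged, 12 genes were at least 3-fold higher in every serum-free group than in the higher serum group, under the same limits otherwise. At a 2-fold limit the counts were 7 and 38, and at 1.5-fold 29 and 83. At a limit of 1, where the lower serum group only had to reach the highest serum-free group, they were 545 and 628. SFGM was then the highest serum-free group in 248 of the 545 genes.

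**Figure D5:**
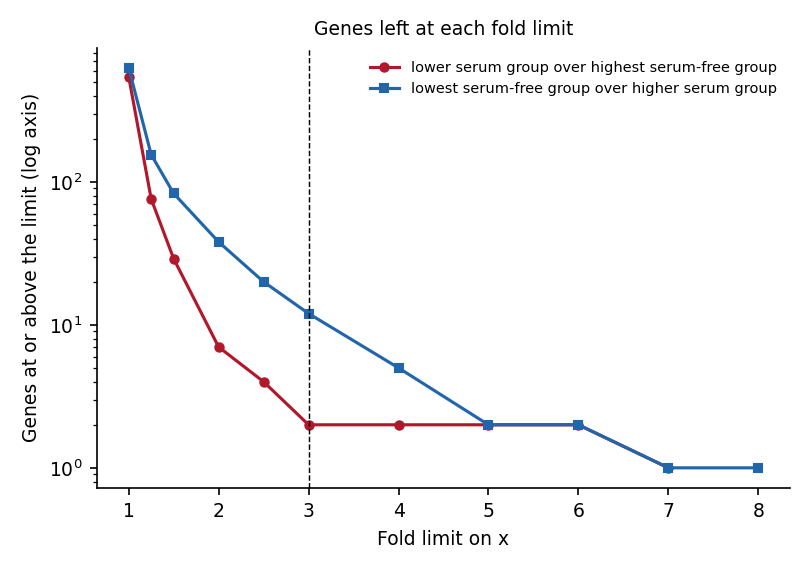
Number of genes (log axis) at or above each fold limit on x, for the lower serum group over the highest serum-free group and for the exchanged direction; the dashed line marks the 3-fold limit. The serum direction falls from 545 genes to 2 at 3-fold and stays at 2 up to 6-fold, and the exchanged direction has 12 genes at 3-fold.

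The 5 genes whose pattern was most like that of the members were found by Pearson's correlation of log2(CPM + 0.5) with the mean profile of the members over 18 libraries, among 14635 other genes. The coefficients were 0.981, 0.972, 0.965, 0.963 and 0.955, and the split between serum and serum-free libraries, which chose the members, dominates them. The mean profile also has DMEM above the other serum-free groups, so a high DMEM level in these genes is partly built in. The first of these had 209 ± 4.83 CPM in GM and 189 ± 3.11 in DM, against 61.9 ± 1.23 in SFGM, 67.5 ± 7.69 in SFB, 66.9 ± 5.76 in SFDM and 102 ± 4.91 in DMEM. Its ratio of the lower serum to the highest serum-free group was 1.85 on the scale of x. In the other four that ratio was 1.44, 1.53, 4.23 and 1.92. The gene at 4.23 was kept out by its level, with 3.06 ± 0.792 CPM in GM and 3.95 ± 0.919 in DM against 0.0978 to 0.341 CPM in the serum-free groups.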

How the data were processed

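Poly(A) RNA of 18 cultures, 3 in each of 6 media, was sequenced from stranded mRNA libraries with 75 bp reads, per the labels' protocols. The authors deposited raw counts, whole numbers of reads per Ensembl bovine identifier. STAR 2.7, featureCounts and bosTau9 are named in the submitters' processing notes. Of the annotation release and the strand setting nothing is given in the sources used here, so overlapping, antisense or near-identical genes could share reads with the members.

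Each column was matched to its sample by its label. CPM for the selection and the printed levels used column totals. Tests used R 4.3.3 and edgeR 4.0.16: filterByExpr with a minimum count of 10, which kept 14637 genes, TMM scaling, robust quasi-likelihood fits with a mean per group over all 18 libraries, and two-sided contrasts. Alternatives were RLE scaling, totals alone, no filter or a minimum count of 50, DESeq2 1.42.0, only the compared groups, a block for the replicate letter, and each library left out in turn. For the selection, other scalings, an added constant of 1, other limits and each library left out were tried. Leaving out a serum-free group was added after the data were seen.

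The members, lists and tests were chosen with earlier results of these data known. The genes to be named were the members of the widest gap and the highest level, those nearest the limit and those most like the members, and with 2 members these were both. Non-members are described without identifiers, because no identifier was paired with a symbol. The 42 gene lists with 644 symbols, cell type markers and promoter motifs that had been written down were for that reason not analysed here. An exact permutation test of 3 against 3 libraries cannot go below 0.1 and was not used.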

Additional observations from a re-analysis of the deposited data

Results flagged for a closer look

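For ENSBTAG00000033304 in CPM from column totals, every SFDM library lay below and every DMEM library above all SFGM libraries. The log2 ratios of x were -0.43 and 1.23, a difference of -1.65 that was not tested, because the selection limited the distance between SFDM and DMEM. With the TMM factors of SFDM replicate C (0.959) and SFGM replicate C (1.058) the order of these libraries is reversed, so the separation of SFDM from SFGM depends on scaling. For ENSBTAG00000017409 in CPM from column totals, every DM library lay below all GM libraries. Every SFB and every DMEM library lay above all SFGM libraries, which held 16 counts of this gene together. With the RLE factors of DM replicate C (0.945) and GM replicate B (1.054) the order of these libraries is reversed, so the separation of DM from GM depends on scaling. The log2 ratios of x were -0.41 for DM over GM, 0.75 for SFB over SFGM and 0.70 for DMEM over SFGM. The added 0.5 makes up most of the x of SFGM (0.697) and shrinks the ratios to SFGM, for which edgeR gave 1.82 and 1.69. The differences of -1.16 and -1.11 were not tested, because the selection limited the ratio of DM to GM. The share of all genes with these orders of libraries was not counted.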

How the results depend on the processing

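The selection gave 2 or 3 genes when any 1 library was left out, with 3 only without DM replicate C or any 1 DMEM library, and both members were kept each time. It also gave 3 with TMM or RLE scaling and 2 with an added constant of 1 or a 4-fold limit. It gave 7 with a 2-fold limit and 1 with an x of at least 10. Without SFGM among the serum-free groups it gave 5, and without DMEM 7, where the ratio of ENSBTAG00000033304 was 18.6. The ratio of ENSBTAG00000017409 was 5.05 with an added constant of 1. Leaving out a library gave 7.65 to 8.44 and 6.31 to 7.36 for the 2 ratios.

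The members called in SFDM against SFGM numbered 0, and 1 with totals alone and 1 with DESeq2, and 0 to 1 when a library was left out. Over all genes, in either direction, 8987 were called in the main fit, 9373 with totals alone and 9125 with DESeq2. With a library left out 8288 to 8492 were called. With only SFDM and SFGM in the fit ENSBTAG00000017409 did not pass the filter on low counts and was not tested. The counts of members called in the other 4 comparisons did not change under any alternative run. Differences near 0 changed sign: ENSBTAG00000033304 in SFB against SFGM was 0.0035 with a minimum count of 50 and -0.14 to 0.12 with a library left out, and ENSBTAG00000017409 in DMEM against SFB was -0.30 to 0.14 with a library left out. The cause was not tested.

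Same-letter libraries of SFB and SFGM deviated together with r = 0.0934, 0.186 and 0.336 across genes, and of the other 4 pairs of groups with -0.59 to 0.00203, so the letters were not taken to pair the libraries. With the replicate block and all groups in the fit, the members called against SFGM were 1 for SFB, 0 for SFDM and 2 for DMEM, and against SFB 0 for SFDM and 1 for DMEM, as without it. Of all 14637 genes tested, 8376, 8817 and 9051 were called against SFGM with the block, in either direction. Against SFB they were 4841 and 5679, so nothing is read from these counts for the 2 members. The 1 to 23 counts per serum-free library limit what can be seen for ENSBTAG00000017409. The list counts planned for 2 scalings were not run, since no identifier matched a symbol.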
